A study of Homo sapiens with 8 samples.

Results

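The genes described here are those read well enough in control SK-N-BE(2) cells to compare their m6A immunoprecipitate (IP) with its input. They were chosen as every gene with at least 10 counts in each of the 4 control libraries, which kept 19585 of the 56303 genes in the deposited count table. SK-N-BE(2) is an established human neuroblastoma cell line. The control cells, sh-NC, were a stable line made with a lentivirus carrying a control shRNA and selected with puromycin, and the series also holds a line with an shRNA against METTL14. Each arm had 2 cultures, sequenced once after the pull-down and once before it. Nothing in the labels says how far the 2 cultures of an arm were grown apart, so the p-values measure the spread between these libraries, which may be technical.

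N6-methyladenosine (m6A) is the most common internal mark of messenger RNA. A nuclear writer complex with METTL3 and METTL14 at its core adds it, mostly within a short consensus sequence and mostly near stop codons and inside long exons, the demethylases FTO and ALKBH5 can remove it, and YTH-domain proteins read it and often shorten the life of the RNA. In MeRIP-seq, poly(A) RNA is broken into short pieces and an antibody against m6A enriches the marked pieces, so that a gene whose RNA carries more of the mark than the average gene takes up a larger share of the IP than of the input. IP over input is therefore a relative measure. Here it was one value for a whole gene, the ratio of its counts in the IP to those in the input of a culture, each scaled to the library (CPM, read counts per 1e6 after TMM scaling), and it does not say where in the gene the mark lies or how many sites there are. A pair of values given below for a gene without a unit is this ratio in cultures 1 and 2, and a single value is the fitted log2 ratio over both.

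Total counts were 47205265 and 32533721 in the IP libraries and 34597524 and 34550154 in the input libraries of cultures 1 and 2. Of the adrenergic neuroblastoma markers, 10 of 10 were among the genes kept, with summed input levels of 6290 and 6061 CPM in the 2 cultures, of which MYCN alone made up 4452 and 4224 CPM. DBH, which makes noradrenaline, was present at only 2.38 and 2.33 CPM. The 8 blood cell markers summed to 2.13 and 2.13 CPM, with 4 of them at 0 in both inputs, and the 7 epithelial markers to 18.8 and 20.3 CPM, with none at 0 in both. The 9 fibroblast and Schwann cell markers summed to 416 and 428 CPM and none was at 0. COL3A1, PDGFRB and COL1A1 gave most of that sum, and their part in the results below was not tested. Between 79.7% and 81.3% of all counts from 1 to 20 were even numbers in each of the 8 libraries of the series, so the 2 mates of a read pair appear to have been counted separately and 10 counts stand for about 5 fragments. With all counts divided by 2, 6450 genes passed as higher in the IP and 6259 as lower, beside 6456 and 6173 with the counts as deposited.

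IP over input differed widely between genes and closely matched between cultures. Its log2 value had a median of 0.01 over the 19585 genes, with quartiles at -0.43 and 0.44 and with 5% of genes below -1.17 and 5% above 0.97. By edgeR's quasi-likelihood test at an adjusted p of 0.05, 6456 genes (33%) were higher in the IP and 6173 (31.5%) were lower, together 64.5%, beside 29.1%, 29.8% and 58.9% of all 22953 genes tested. At least a doubling was called in 870 genes and at least a halving in 1446. The counts rest on the scaling of IP against input, since library size alone in place of TMM factors lowered the median by 0.13 and gave 5173 higher and 7516 lower genes, so that 40.8% of the called genes were higher instead of 51.1%. Directions are therefore relative to the typical gene of these libraries. Culture 1 and culture 2 differed by a median of 0.15 on the log2 scale and correlated across genes by a Pearson r of 0.84 and a Spearman rho of 0.84. These genes share libraries and are not independent replicates. Over all 19585 genes 86.4% lay on the same side of 1 in both cultures. Among the 12629 called genes the share was 99.9%. The calls were made on these same 2 cultures, so the higher share is no separate support. The shMETTL14 libraries gave the same call in 5735 (88.8%) of the genes higher in sh-NC and in 5399 (87.5%) of those lower, and the opposite call in 3. Both arms were fitted in 1 model with a shared estimate of spread. The shares of all genes called in the shMETTL14 libraries are not given here, so these percentages have no background to be read against. Genes just inside the limit, with a lowest count of 10, had a median log2 value of -0.13 (384 genes), and those just outside, with a lowest count of 9, had one of -0.00 (149 genes).

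The lowest values included housekeeping and membrane protein mRNAs. Ranked among genes with at least 100 counts in every control library and at most 5% of their exonic bases shared with another gene, the lowest was CD81, a tetraspanin of the cell surface. CD81 had 15.4 and 13.7 CPM in the IPs against 74.1 and 70.5 in the inputs. Its IP over input was thus 0.207 and 0.195 in cultures 1 and 2, a log2 value of -2.30 ± 0.06 (SE, edgeR adjusted p = 1.37e-33). ATP6V0B, a membrane subunit of the vacuolar proton pump, had ratios of 0.214 and 0.212, and GPAA1, part of the enzyme that attaches GPI anchors, had 0.231 and 0.211. The lectin LGALS1 (galectin-1) had 0.238 and 0.215, the cytochrome c oxidase subunit COX7C 0.238 and 0.222, and the glutathione transferase MGST3 0.235 and 0.226. RPLP0, a stalk protein of the large ribosomal subunit and a common qPCR reference, was by far the most abundant of them, with 1014 and 1048 CPM in the inputs and 256 and 243 in the IPs. In none of these genes did the IP and the input ranges overlap. They were chosen as the lowest by these same values, so this is no added support. The pseudogenes RPL18AP3 and RPS23P8 and the histone H3.3 retrogene H3F3C completed the lowest 10, and their values are uncertain because they are near-identical copies of expressed genes, between which the counting may have split or shared reads.

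The highest values were spread over genes of varied function. PUS3, a pseudouridine synthase, had 133 and 132 CPM in the IPs against 46.4 and 45.4 in the inputs, so its ratio was 2.87 in culture 1 and 2.92 in culture 2 (log2 1.53 ± 0.05, SE, edgeR adjusted p = 1.23e-31). OTUD6B-AS1, a long noncoding RNA, had ratios of 2.93 and 3.41. CPM, which encodes carboxypeptidase M and shares its name with the unit, had ratios of 3.44 and 2.87 on only 131 and 149 input counts. JRKL had 3.25 and 2.83, LLPH 2.95 and 3.07, and MSANTD4 2.80 and 2.62. TCEAL8, of the transcription elongation factor A-like family, had 2.60 and 2.96, the chromatin-binding ING2 2.59 and 2.97, and C1GALT1C1, a chaperone needed for O-glycan synthesis, 3.08 and 2.44. Both cultures of all 10 genes lay above 2, which their choice as the highest made likely. The largest gap between the cultures was that of C1GALT1C1. The highest of the 10, HMGN2P5 with 3.67 and 3.40, is a pseudogene of HMGN2 and is uncertain in the same way as those at the low end.

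The genes named for their place in the field ran from GAPDH at -1.37 to MYC at 0.99 on the log2 scale. MYCN, the oncogene amplified in high-risk neuroblastoma, had 5510 and 5375 CPM in the IPs and 4452 and 4224 in the inputs, a log2 value of 0.33 ± 0.03. MYC was hardly expressed, with 27 and 53 input counts, and its ratios of 2.74 and 1.63 gave 0.99 ± 0.28 (SE, edgeR adjusted p = 0.00180). Without culture 1 the MYC value was 0.72 and no longer passed the test. METTL14 had ratios of 1.58 and 1.60 (log2 0.67 ± 0.05) and its partner METTL3 1.05 and 1.04 (log2 0.07 ± 0.05, edgeR adjusted p = 0.291), a value that was -0.06 with library size alone. YWHAH, which encodes a 14-3-3 adaptor, had 1.77 and 1.79 (log2 0.83 ± 0.04). MALAT1, a nuclear long noncoding RNA well known for its m6A sites, had 1.59 and 1.72, although 23.3% of its bases are shared with another annotated gene. NEAT1, the scaffold of paraspeckles transcribed from the neighbouring gene, had 0.875 and 0.813. NORAD, a cytoplasmic noncoding RNA that binds PUMILIO proteins, had 1.19 and 1.23. GAPDH, ACTB and EEF1A1 were all lower in the IP, with log2 values of -1.37 ± 0.03, -0.79 ± 0.03 and -0.50 ± 0.03.

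The first transcribed bases of the 3 highest and 3 lowest protein-coding genes among these 20 with an entry used here from the RefSeq promoter table (GRCh38.p14) are shown because the antibody also binds m6Am, the related mark that follows the cap where a transcript starts with A. The start base is in capitals.
CPM (chr12:68933180-68933199, minus strand): Ataacacccggccccgccgg
JRKL (chr11:96390013-96390032, plus strand): Aggggcggagcgactgccgc
LLPH (chr12:66130731-66130750, minus strand): Gacttccggtcggcgtgagc
MGST3 (chr1:165631234-165631253, plus strand): Gccgcacccacaccgcgctg
COX7C (chr5:86617941-86617960, plus strand): Cttttcagtccttgcgcacc
ATP6V0B (chr1:43974960-43974979, plus strand): Agactgcgggacggacggtg
Both ends of the order held a start at A and a start at G. Over the 11075 protein-coding genes with an entry, the median log2 IP over input was 0.04 for a start at A (5197 genes), 0.00 at G (4490), -0.06 at C (1286) and -0.23 at T (102). By exonic length, A and C stood at -0.03 and -0.08 up to 2000 bases, 0.03 and -0.14 from 2000 to 4000, 0.03 and -0.06 from 4000 to 8000 and 0.09 and 0.04 above 8000 bases, and the quartiles of all 4 start bases overlapped widely. RefSeq lists 1 start per gene, and starts in these cells were not measured.

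Exon structure was read from the exon starts and ends that the count table lists for each gene, after merging exons that overlap or touch over all isoforms. A merged exon number is thus not that of any one mRNA. The structure was described in the 13501 genes that RefSeq calls protein-coding, of which 4899 (36.3%) were higher in the IP and 4524 (33.5%) lower, together 69.8%. IP over input fell as the number of exons rose. Among 334 single-exon genes the median log2 value was 0.46 and 0.45 in cultures 1 and 2, and 54.5% were higher in the IP against 12.9% lower. Genes of 2 to 3 exons had medians of 0.28 and 0.25, those of 4 to 6 exons 0.11 and 0.11, and those of 7 to 10 exons -0.01 and -0.01. In genes of 11 to 20 exons the medians were -0.04 and -0.03, and above 20 exons they were -0.06 and -0.03. The gaps between the first 4 groups were larger than the difference between cultures, and those between the last 3 were small beside the quartiles of each group, such as -0.39 and 0.30 above 20 exons.

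The longest exon worked in the other direction. Genes whose longest exon had up to 400 bases had medians of -0.17 and -0.14 in the 2 cultures, and from 400 to 1000 bases they were at -0.19 and -0.19. From 1000 to 2000 bases the medians were -0.03 and -0.04, from 2000 to 4000 bases 0.06 and 0.08, and above 4000 bases 0.14 and 0.15. The last exon, which usually holds the stop codon and the 3' UTR, gave -0.07 up to 400 bases, -0.13 from 400 to 1000, 0.00 from 1000 to 2000, 0.08 from 2000 to 4000 and 0.13 above 4000. The longest internal exon gave no such order, with 0.09 up to 200 bases, -0.05 from 400 to 1000 and 0.09 above 2000. The mean number of exonic bases per exon gave the widest spread of medians, from -0.16 up to 200 bases to 0.25 from 1000 to 2000 and 0.40 above 2000 bases. Exonic length gave low medians mainly in the shortest genes. The 126 genes of up to 1000 bases had a median of -0.24, those of 1000 to 2000 bases -0.05, those of 2000 to 4000 bases -0.01 and those above 8000 bases 0.07. Across the 13501 genes the Spearman rho with log2 IP over input was 0.23 for bases per exon, 0.18 for the longest exon, 0.15 for the last exon, -0.14 for the exon number, 0.05 for the exonic length, 0.05 for the genomic span and 0.00 for the first exon. The genes share libraries, and these correlations describe them without a test. All of them were weak. The input level had a rho of -0.02, but genes under 1 CPM and above 300 CPM both had higher medians (0.17 and 0.18) than those of 10 to 30 CPM (-0.06). The input is the divisor of the ratio, and at least 10 counts were asked of each IP. Genes of low input were thus kept only where their IP was not low, so the median under 1 CPM is no result about expression level.

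Exon number went with IP over input at like exonic length or longest exon, and the longest exon did so at like exon number above 1. Among single-exon genes the medians by longest exon had no order, at 0.42, 0.26, 0.51 and 0.47 from up to 1000 to more than 4000 bases. Among genes of 2000 to 4000 exonic bases, those with 1 exon had a median of 0.51, those with 2 to 3 exons 0.31, those with 7 to 10 exons -0.09, those with 11 to 20 exons -0.16 and the 59 with more than 20 exons -0.09. Genes of the same 2000 to 4000 bases had a median of -0.23 where no exon passed 1000 bases and of 0.29 where the longest had 2000 to 4000 bases. At a longest exon above 4000 bases the medians fell from 0.47 with 1 exon and 0.43 with 2 to 3 exons to 0.14 with 7 to 10 and 0.08 with more than 20 exons. Conversely, among genes of 11 to 20 exons they rose from -0.24 with a longest exon of up to 1000 bases to 0.09 above 4000 bases. Long genes built of short exons were more often lower than higher, though not all were. The 47 genes of more than 8000 bases with no exon above 1000 bases had a median of -0.32, against 0.15 for the 1603 of that length with an exon above 4000 bases. Of the 47, 27 were lower and 9 higher, with quartiles at -0.69 and 0.02. CENPE, with 9444 bases and no exon above 627, went the other way at a log2 value of 1.08.

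Over all 19548 genes that lie on 1 chromosome the medians also fell from 2 to 3 exons onwards, at 0.15, 0.12, 0.01, -0.03 and, above 20 exons, -0.05, but the 2722 single-exon genes broke that order with a median of -0.05. Only 334 of the 2722 are protein-coding in RefSeq. A further 902 are RefSeq pseudogenes, and 1299 had no RefSeq match. By RefSeq type the median was 0.01 for protein-coding genes, 0.18 for 859 long noncoding RNAs, 0.14 for 334 transcribed pseudogenes, -0.25 for 983 other pseudogenes and -0.62 for 38 small nucleolar RNAs. Pseudogenes included copies at both extremes, as the named ones show, and their values are uncertain.

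Single genes at either end of the exon number scale varied widely. Of the single-exon genes, ZNF830 had ratios of 2.51 and 2.73 and NAP1L3, a nucleosome assembly protein-like gene, 2.74 and 2.58. IER5 and IER3, induced early after stimulation and each listed as 1 merged exon, had log2 values of 1.17 ± 0.05 and 0.97 ± 0.04. ID1, a dominant-negative helix-loop-helix protein whose gene is listed as 1 merged exon, had 0.430 and 0.393 (log2 -1.27 ± 0.08). Among genes of more than 50 exons, AKAP9 and CEP290, both of the centrosome, had log2 values of 0.97 ± 0.04 and 0.95 ± 0.05, and the scaffold gene MAGI2 0.80 ± 0.11. PI4KA, a lipid kinase, had ratios of 0.402 and 0.420 (log2 -1.28 ± 0.05), the secreted neuronal protein RELN 0.474 and 0.445, and the sorting receptor SORL1 0.505 and 0.467.

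The medians of gene lists by function ran from -0.74 to 0.71. The function lists were written with earlier results of these data known, and their counts are set beside the 33% higher and 31.5% lower among all genes kept. Most lists hold protein-coding genes only, of which 36.3% were higher and 33.5% lower. At 100 to 300 CPM of input 49.7% of protein-coding genes were higher and 38% lower, and above 300 CPM 56.5% and 33.1%. The lists were not matched for input level, so a share above 33% alone does not set a list of abundant mRNAs apart. For structure, each gene was also set against the median of protein-coding genes of its own bin of exon number and longest exon. These bins use the merged exons, which need not be those of the mRNAs read, so they are only a rough match for structure. RPLP0, for one, is listed with 2 merged exons and a longest of 2878 bases. The lowest list medians were those of glycolysis, cytosolic ribosomal proteins, small nucleolar RNA host genes and the respiratory chain. Their medians relative to their bins were -0.51, -0.78, -0.62 and -0.47, and relative to the median of all genes -0.75, -0.67, -0.64 and -0.57. Of the 17 glycolytic enzymes 16 were lower in the IP and none higher, with a median log2 value of -0.74 and culture medians of -0.69 and -0.75. The lowest was ALDOA, the main aldolase, at 0.402 and 0.362 (log2 -1.39 ± 0.04), and the 1 gene not called was TPI1 at 1.03 and 0.991. All 15 common reference genes were lower, from RPLP0 at -2.05 through GAPDH to TBP at -0.21 and YWHAZ at -0.14, and the TBP call was lost without culture 1 (-0.10) and in DESeq2 (-0.20).

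Genes of protein synthesis were split. Of the 79 cytosolic ribosomal protein genes 62 (78.5%) were lower and 12 higher, with culture medians of -0.65 and -0.66. RPL10 was lowest at 0.189 and 0.179, although 52.7% of its bases lie in another gene, and RPS24 highest at 1.54 and 1.78. RPL26, with 1.33 and 1.54, was also among the 12. The 44 translation initiation and elongation factors had 23 lower and 16 higher, from EIF6, which keeps ribosomal subunits apart, at -1.97 ± 0.07 to EIF3J at 0.95 ± 0.04 and EIF5B at 0.92 ± 0.04. Without overlapping genes the list stood -0.24 from the median of all genes instead of -0.15. Mitochondrial ribosomal proteins stood near the median of all genes (-0.07), with 36 of 78 lower and 28 higher and a span from -1.43 for MRPS24 to 1.34 for MRPL36. Aminoacyl-tRNA synthetases had a median of -0.05, with 8 of 16 lower and 7 higher.

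Of the 75 nuclear-encoded subunits of the respiratory chain 52 (69.3%) were lower in the IP and 13 higher, with culture medians of -0.47 and -0.59. COX8A (34.5% of its bases shared with another gene) and COX7C, both of cytochrome c oxidase, were lowest at -2.13 ± 0.12 and -2.12 ± 0.05, and NDUFB10 of complex I was highest at 1.82 and 1.92 (log2 0.90 ± 0.04). Of the 13 mitochondrially encoded mRNAs 11 were higher, with a median of 0.61 and culture medians of 0.53 and 0.67. They are listed with 1 exon, and relative to the nuclear protein-coding genes of their structure bins their median was 0.18. MT-ATP8 had 2.13 and 2.37, although 22.2% of its bases overlap MT-ATP6, and MT-ND6, the mRNA transcribed from the other strand, 1.94 and 1.85. The exceptions, MT-CO1 and MT-CO3, encode cytochrome c oxidase subunits, but MT-CO2 of the same enzyme was not among the exceptions. MT-CO1 had 5330 and 5947 CPM in the IPs against 9997 and 10014 in the inputs, a log2 value of -0.83 ± 0.04, and MT-CO3 was not called at 0.920 and 1.07. The value of MT-CO3 changed with the culture, at 0.10 without culture 1 and -0.12 without culture 2.

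Other lists of the low end were the proteasome, with 28 of 41 subunits lower and 7 higher (median -0.34), cholesterol synthesis, with 13 of 19 lower and 2 higher (median -0.32), and DNA replication, with 28 of 47 lower and 14 higher (median -0.32). PSMB4, a 20S core subunit, had 0.353 and 0.358, while PSMA4 of the same core had 1.88 and 1.95. LSS and MVD of cholesterol synthesis had log2 values of -1.03 ± 0.06 and -0.91 ± 0.07, and the 2 genes that were higher were SC5D (0.76 ± 0.05) and EBP (0.63 ± 0.05). In replication, the polymerase delta subunit POLD2 had -0.98 ± 0.05 and the licensing factor CDT1 -0.93 ± 0.06, whereas the flap endonuclease FEN1 had 0.88 ± 0.04 and GINS3 0.78 ± 0.08. Small nucleolar RNA host genes, whose spliced RNAs mostly code for no protein, had 17 of 23 lower, with a median of -0.63 and culture medians of -0.48 and -0.73. Only 4 of the 23 shared no bases with another gene, so the values of this list are uncertain. SNHG1 had 0.553 and 0.525, with 15.3% of its bases shared. The only one called higher, SNHG16, had 1.12 and 1.15, and it did not pass with library size alone (0.06). Markers of fibroblasts and Schwann cells had 5 of 9 lower and 1 higher, from COL1A1 at -0.98 ± 0.06 to LUM, 1.14 and 1.55, as the highest with 100 counts or more.

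C2H2 zinc finger genes, the largest family of human transcription factors, were the largest list of the high end. Of 516 in the rule 394 (76.4%) were higher in the IP and 23 lower, with a median of 0.62 and culture medians of 0.61 and 0.63. ZNF669 had 2.56 and 2.64. ZNF830 is described above. The lowest with 100 counts or more were ZNF580, at 0.541 and 0.511, and ZNF428, at 0.682 and 0.548. Their typical structure was 7 merged exons with a longest exon of 3178 bases, and protein-coding genes in like bins of both features had medians about 0.14, so the zinc finger genes lay a median of 0.48 above their bin. The 190 with 7 to 10 exons had a median of 0.63 against -0.05 for the other 2735 protein-coding genes of that exon number. Without the zinc finger genes the medians by exon number were 0.44, 0.26, 0.05, -0.05, -0.05 and -0.05 from 1 to more than 20 exons, so that the fall with exon number remained. Chromosome 19, which carries many of these genes in clusters, had a median of 0.00 over 978 protein-coding genes but divided by family. Its 247 zinc finger genes had culture medians of 0.65 and 0.66, with 190 higher and 7 lower, and its other 731 genes had -0.20 and -0.25, with 165 higher and 348 lower. Zinc finger genes on the other chromosomes had culture medians of 0.55 and 0.60. Between chromosomes the medians ran from -0.16 on chromosome 22 (329 genes, -0.14 and -0.20 by culture) to 0.18 on chromosome 13 (223 genes, 0.14 and 0.18 by culture).

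The protocadherins, cadherin-like adhesion proteins of neurons, had the highest list median, 0.71, with 38 of 62 higher and 21 lower, but the clustered genes are not separate measurements. The alpha and gamma genes each splice a variable first exon to constant exons that all genes of the cluster share, and a median of 49.4% and 43.9% of their bases is shared. The 15 alpha genes had 1961 to 2892 counts in the input of culture 1, with a median of 2021, and 4194 to 5986 in its IP. Their log2 values lay between 0.70 and 0.82, so that they amount to about 1 measurement of the shared exons. In the same way the 22 gamma genes had 2560 to 5880 input counts, with a median of 2602, and log2 values between -0.28 and 0.23. All 21 protocadherins that were lower were gamma genes, and the exception was PCDHGC3 at 0.23. The 15 beta genes have 1 exon each and share a median of 6.77% of their bases, and 14 of them were higher, with culture medians of 0.91 and 0.97. PCDHB10 had 2.84 and 2.36 and PCDHB9 2.27 and 2.16. Over the 15 protocadherins with at most 5% of shared bases 12 were higher and none lower, with a median of 0.72.

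Of the 967 LINC-named genes, only 147 were read well enough, and LINC01420 among them is protein-coding in RefSeq. In these, 56 were higher and 10 lower, with a median of 0.40, culture medians of 0.30 and 0.37 and 0.27 relative to their bins. Genes of low input were kept only where their IP was not low. All genes kept under 1 CPM of input had a median of 0.20, with 14.2% higher and 2.7% lower. How far this choice raised the LINC values was not tested. Genes of chromatin and transcription control were also mostly above the median. Of 33 subunits of ATP-dependent chromatin remodelers 28 (84.8%) were higher and 4 lower, with a median of 0.34 and culture medians of 0.30 and 0.44. ATRX had 1.71 and 1.80 and BAZ1A 1.56 and 1.81. The 4 lower genes all encode subunits of SWI/SNF complexes, SMARCD2 (0.471 and 0.424), SMARCD1 (0.508 and 0.548), SMARCB1 (-0.54) and SMARCD3 (-0.21), the last 2 named after their values were seen. They were grouped after the fact, and the SWI/SNF subunits of the list that were not lower were not counted, so the complexes are not shown to be low. The remodelers had a median of 34 merged exons, and protein-coding genes in like bins of exon number and longest exon had a median of -0.05. Histone methyltransferases, demethylases and coactivators had 30 of 47 higher and 9 lower (median 0.28, and 0.14 above all genes instead of 0.27 without overlapping genes), from EHMT2 at -0.54 ± 0.05 to the DNA demethylase TET1 at 0.86 ± 0.05. HOX genes, which pattern the body axis, had 8 of 12 higher and none lower (median 0.42), with HOXC8 at 1.90 and 2.39 and HOXD8 at 1.93 and 2.35, and only 3 of the 12 shared no bases with another gene, which stood 1.07 above the median of all genes instead of 0.41. Of the genes induced early after stimulation, most with short-lived mRNAs, 18 of 40 were higher and 10 lower (median 0.20). They did not stand apart from their bins of exon number and longest exon (-0.01), and their median above that of all genes went from 0.19 to 0.11 without culture 2. Splicing factors had 38 of 75 higher and 25 lower (median 0.13, which fell to that of all genes once overlapping genes were left out), heat shock proteins and chaperonins 14 of 23 higher and 6 lower (0.20), and kinesins and dyneins 21 of 36 higher and 7 lower (0.23). Without overlapping genes the latter 2 lists stood 0.32 and 0.35 above all genes instead of 0.19 and 0.22. For the replication-dependent histones, whose mRNAs carry no poly(A) tail, 24 of 63 genes in the table were read well enough, and 5 were higher and 2 lower. The 2 lower ones, HIST1H2BK (-0.59) and HIST1H2BN (-0.49), each lost the call on leaving out a culture (-0.56 without culture 2 and -0.06 without culture 1), and that of HIST1H2BN was also lost in DESeq2 (-0.48).

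The core transcription factors of adrenergic neuroblastoma were mostly higher in the IP, at 11 of 15 with a median of 0.32 and culture medians of 0.29 and 0.35. Relative to their structure bins the median was 0.17, and without overlapping genes their median above that of all genes went from 0.31 to 0.12. HAND2, a helix-loop-helix factor of sympathetic neuron development, had 1.92 and 2.05. The only one lower was the homeobox gene PHOX2A, which activates noradrenergic genes. PHOX2A had 55.0 and 58.8 CPM in the IPs against 147 and 159 in the inputs. Its ratios were 0.374 and 0.370 and its log2 value was -1.43 ± 0.05. TH, the rate-limiting enzyme of catecholamine synthesis, was the lowest of the adrenergic markers at 0.343 and 0.294 (log2 -1.65 ± 0.07).

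The m6A machinery itself was mostly above the typical gene, with 15 of 22 genes higher and 3 lower (median 0.32, culture medians 0.31 and 0.38). The writer complex held the highest, ZC3H13 at 1.90 and 2.16 and RBM15, which guides the complex, at 1.92 and 2.03. Both erasers were lower, FTO at 0.862 and 0.793 (log2 -0.27 ± 0.06) and ALKBH5 at 0.844 and 0.822 (log2 -0.26 ± 0.05). The third lower gene was the reader IGF2BP3 at -0.21, named after its values were seen.

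Lists near the median of all genes held large values of both signs. Genes of mitosis had 15 of 32 higher and 15 lower. CENPE and CENPF, 2 very large kinetochore proteins, had 2.06 and 2.17 and 1.94 and 2.12, against 0.452 and 0.429 for CDC20, which activates the anaphase-promoting complex. Axon guidance genes had 18 of 58 higher and 22 lower (median -0.15), from EPHA1 at 0.337 and 0.281 to SEMA3A at 1.74 and 1.69. Notch, Wnt, Hedgehog and TGF-beta genes had 19 of 67 higher and 23 lower, with NOTCH3 at -0.99 ± 0.11 and SKIL at 1.09 ± 0.06. F-box genes had 21 of 56 higher and 14 lower, with the tumour suppressor FBXW7 at 2.31 and 2.28, and Kelch-like adaptors 6 of 25 higher and 7 lower, with KLHL11 at 2.86 and 1.99. Voltage-gated ion channels had 11 of 40 higher and 6 lower, from KCNH2 at 0.593 and 0.583 to SCN8A at 1.54 and 1.55. Among well-known long noncoding RNAs, 9 of 17 were higher and 6 lower. JPX, from the X-inactivation centre, had 3.19 and 3.20, the neuroblastoma-associated NBAT1 2.04 and 2.38, and the imprinted H19 0.718 and 0.695. COX8A, IER3, HAND2, JPX, ZNF428 and MRPS24, named above, share between 21.4% and 34.5% of their bases with other genes, so their values are uncertain where reads of the neighbours were counted with them.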

How the data were processed

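Poly(A) RNA of SK-N-BE(2) cells was fragmented to 100 to 200 bases with 10% kept as input, and the libraries were stranded and paired, with molecular identifiers. The values used are raw read counts, as the authors deposited them for each gene. The submitters' notes name GRCh38 and Trimmomatic 0.36. The aligner, counting tool, strand setting, annotation and handling of duplicates are not given in the sources used here, so genes that share exonic bases (all but 9533 of the 19585) or have near-identical copies are uncertain, and p-values carry any duplicate noise.

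Counts of all 8 libraries were fitted in 1 model of 4 group means with edgeR 4.0.16 (R 4.3.3, limma 3.58.1), with filterByExpr (22953 genes), TMM factors and the quasi-likelihood test, Benjamini-Hochberg adjustment over all genes tested and a threshold of 0.05. The fit was tested on simulated data with 200 genes changed by a log2 value of 0.25, 0.5 or 1, far fewer genes than were called here. It recovered 17%, 62% and 66% of them, with 5, 10 and 6 false calls. Ratios are of CPM. Medians, counts and correlations used Python 3.11.15, pandas 2.3.3 and matplotlib 3.10.9, with no test over genes or lists. RefSeq (GRCh38.p14) matched 14966 of the 19585 genes by symbol and 852 by an older symbol, and gave their type; lists other than noncoding and mitochondrial ones keep protein-coding matches only. Genes on more than 1 chromosome have no structure.

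Named genes are the 10 highest and 10 lowest (at least 100 counts in each control library, past the threshold, matched, at most 5% of bases shared), the 3 highest and 3 lowest with 1 exon and with over 50, the 2 highest and 2 lowest of each list with at least 100 counts, and 12 fixed genes, of which some are not reported here. The genes described and the lists were chosen with earlier results of these data known. The alternatives were DESeq2 1.42.0, other scalings and filters, the sh-NC libraries alone, a replicate block, genes without overlap, a size limit, each culture left out and, chosen after seeing the data, halved counts. IP and input of a culture come from the same RNA. Across genes, the correlation between their departures from the group means was 0.004.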

Additional observations from a re-analysis of the deposited data

Results flagged for a closer look

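The genes of mitosis and the spindle checkpoint had a median log2 IP over input of -0.0492 in the sh-NC fit. Taken alone, sh-NC culture 1 gave -0.02 and culture 2 gave -0.05, whereas both shMETTL14 values lay above 0, at 0.02 and 0.05. The voltage-gated ion channels had a median of 0.0430 in the fit, although each sh-NC culture alone lay below 0, at -0.01 for culture 1 and -0.10 for culture 2, and the shMETTL14 values were 0.02 and 0.00. Neither difference between the arms was tested.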

How the results depend on the processing

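Over the 11 alternatives other than the size limit, the genes kept in the fit numbered 3123 (no exonic overlap) to 6504 (RLE factors) higher and 2867 (no exonic overlap) to 7516 (library size only) lower, and no gene was called in opposite directions. The overlap filter leaves fewer genes to test. With an absolute log2 value of at least 1, 870 were higher and 1446 lower. The replicate block, pairing IP and input by culture, gave 6370 higher and 6094 lower and changed no call of the 169 named genes. DESeq2 gave 5948 and 5559. Leaving out a culture gave 5511 to 5594 higher and 5020 to 5173 lower. Over all genes with a structure, the median for a longest exon above 4000 bases minus that for up to 400 was 0.31. It was 0.26 without overlapping genes, 0.21 with at least 100 counts, 0.33 in protein-coding genes and 0.28 to 0.30 without a culture. Above 8000 minus up to 1000 exonic bases gave 0.22, and 0.24, 0.10 and 0.31 under the same 3 choices of genes, with 0.21 to 0.24 without a culture. Single-exon minus over 20 exons gave 0.0043, then -0.0380 (reversed), 0.17 and 0.49, with 0.0045 to 0.0134 without a culture. The cause was not tested.

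Relative to the median of all genes, list medians near 0 changed sign. Leaving out a culture gave -0.0361 to 0.0886 for F-box genes, -0.0097 to 0.112 for histones, -0.118 to -0.0248 for ion channels and 0.0034 to 0.0217 for Notch, Wnt, Hedgehog and TGF-beta genes. Without overlapping genes, histones were at 0.228, splicing factors at -0.000714 and well-known long noncoding RNAs at -0.0894. Of the 169 named genes 6 changed sign. With library size alone TPI1 was -0.117, HOXC5 -0.0955, EPCAM -0.0177 and METTL3 -0.0615. TPI1 was also -0.0074 with the fit limited to genes of at least 10 control counts. Without a culture MT-CO3 ranged from -0.121 to 0.103, TPI1 from -0.0027 to 0.0375, HOXC5 from -0.0071 to 0.0871 and SNHG5 from -0.218 to 0.0088. The share of coding bases was not computed, as no protein table was used here. The low number of cultures, 2, limits the precision of every value, and for genes near 10 counts depth does so too.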
